A study of Mus musculus with 8 samples.

Results

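Gene expression was described in the mammary tumours of MMTV-PyVT/HdhQ7/Q7 mice, the 4 arrays of the series whose huntingtin carries 7 glutamines (htt polyq 7), out of 8 arrays in all. MMTV-PyVT mice carry the polyomavirus middle T oncogene (PyVT) under the mouse mammary tumour virus promoter, which is active in mammary epithelium, so that adenocarcinomas arise in the gland. HdhQ7/Q7 is the genotype with the short, normal glutamine stretch at both copies of the huntingtin gene. The strain was FVB/CD1, the tumours were not treated, and the animals' ages are not given in the labels. Total RNA of each tumour was hybridized to 1 Affymetrix Mouse Exon 1.0 ST array, which carries probes along the exons of each gene. The other 4 arrays, of MMTV-PyVT/HdhQ111/Q111 tumours, entered none of the values below. The sources used here leave out which mouse a tumour came from, and with 1 array per tumour the spread between tumours holds biological and technical differences that cannot be told apart.

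The deposited table gave a log2 signal for 23332 probe sets, of which 14996 had a single gene symbol, 1019 had several and 7317 had none. The single-symbol probe sets stood for 14860 genes, and for the 135 genes with more than 1 of them the probe set with the highest mean over the 4 tumours was kept. The medians of the 4 arrays lay between 7.58 and 7.63 and the highest signal on any array was 13.83. Signals of different genes come from different probes, so an order of genes by signal is an order of array signal and not of mRNA amount. An SD from 4 values is itself imprecise, and its 95% interval by the chi-square distribution runs from 0.566 to 3.73 times the value printed.

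Middle T has no enzyme activity of its own and works by binding host proteins at the membrane, above all Src family kinases, phosphatase 2A, the adaptor Shc1 and phosphatidylinositol 3-kinase. Mammary epithelium has an inner luminal and an outer basal or myoepithelial layer. Luminal cells include alveolar cells, which make milk proteins, and hormone-sensing cells, which carry receptors for oestrogen and progesterone. PyVT tumours are known as tumours of luminal origin that begin with hormone receptors and lose them in later stages. A dissected mammary tumour also holds fibroblasts, vessels and immune cells, and it can carry along pieces of the fat pad and of the muscle next to the gland.

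The markers of luminal epithelium bore out the label of the tissue. All 21 of its measured markers had a mean signal above the median of all genes, which was 7.99. Epcam, an adhesion molecule of epithelia, gave a log2 signal of 12.76, 12.74, 12.77 and 12.65 in tumours 1 to 4. Cdh1, which encodes E-cadherin, had a mean of 12.32 ± 0.09 (SD, n = 4), and Krt18, a keratin of simple epithelia, one of 11.62 ± 0.16. Between the lowest and the highest tumour Epcam differed by 1.08-fold, Cdh1 by 1.12-fold and Krt18 by 1.30-fold. Other luminal markers varied more, and 2 of the 21, Muc1 and Elf3, had an SD of at least 0.5. Of the basal markers, 5 of 14 lay above the median signal of all genes. Htt, the gene of huntingtin itself, gave 9.43, 9.60, 9.59 and 9.45, a mean of 9.52 ± 0.09.

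The genes with the highest signal encoded proteins of several kinds, among them secreted, membrane and housekeeping proteins. Trf, the iron carrier transferrin, led with 13.75, 13.71, 13.83 and 13.71 in tumours 1 to 4. Lcn2, which encodes the siderophore-binding protein lipocalin 2, followed with 13.74, 13.73, 13.72 and 13.76. Actb, cytoskeletal actin, had 13.71, 13.62, 13.72 and 13.68. These 3 genes overlapped between tumours and their order does not exceed their spread. The next were Aldoa (glycolytic aldolase, 13.60 ± 0.18), Eef2 (translation elongation, 13.55 ± 0.06), Igfbp5 (a binding protein of insulin-like growth factors, 13.52 ± 0.05) and B2m (the light chain of MHC class I, 13.45 ± 0.12). Serinc3, Cd81, Chil1, Actn4, Fth1, Atp5b, Cdc42, Atp5d, Wfdc18, Ly6e, Bsg, Cst3 and Lalba completed the 20 genes with the highest mean, the last of them at 13.09. Among these were the iron store Fth1, the chitinase-like secreted protein Chil1, and Wfdc18, a small secreted protein of the WAP family. Lalba, the milk protein that lets the gland make lactose, stood between 12.87 and 13.42.

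**Figure D1:**
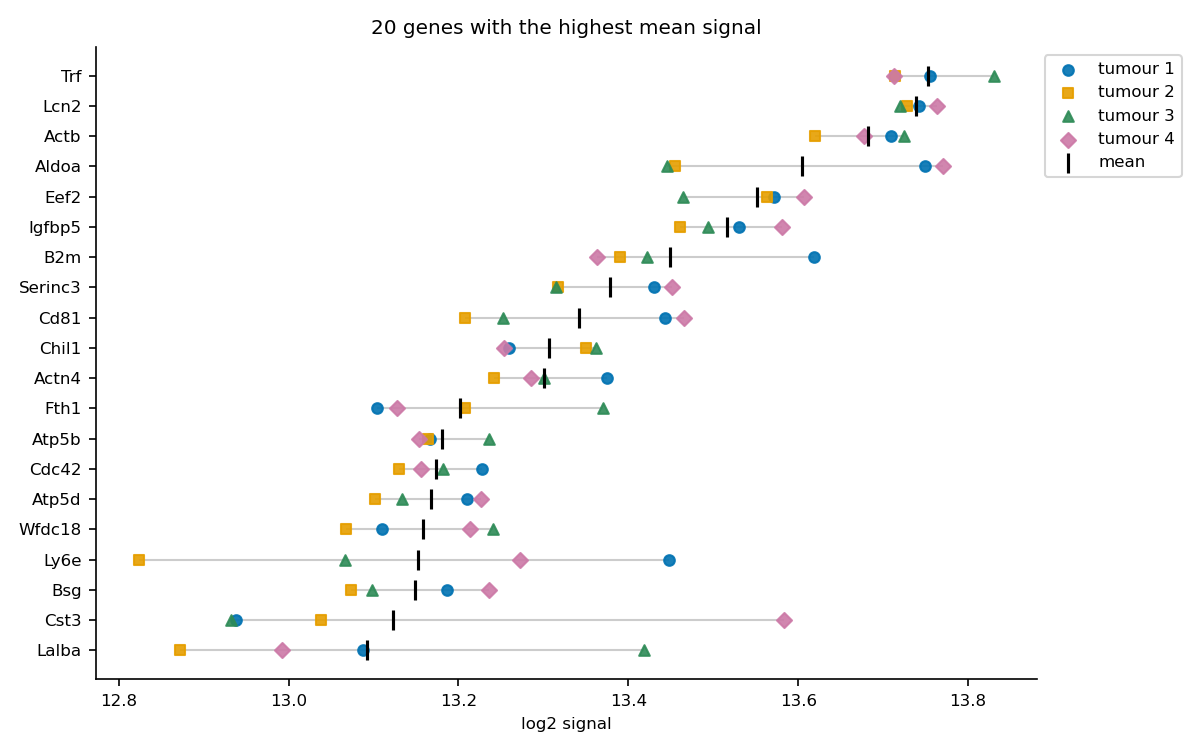
Log2 signal (x axis) of the 20 genes with the highest mean (y axis, in order of the mean) in the MMTV-PyVT/HdhQ7/Q7 tumours, with a point for each of the 4 tumours and a tick for their mean. Most rows span little more than the size of a point, and Cst3, Ly6e and Lalba are the widest.

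Genes of high signal varied little between the tumours. The SD of the 20 genes ran between 0.019 and 0.31, and it was largest for Cst3, Ly6e and Lalba. Cst3, which encodes the protease inhibitor cystatin C, gave 12.94, 13.04, 12.93 and 13.58 in tumours 1 to 4. Tumour 4 was the high one and the other 3 lay close together. Ly6e, a small membrane protein of the Ly6 family that interferon can induce, gave 13.45, 12.82, 13.07 and 13.27, with tumour 2 the lowest. The median SD of the 100 genes with the highest mean was 0.086, against 0.123 over all genes. Of these 100 genes, 0 had an SD of 0.5 or more. That count is near the share of all genes, 2.62%, and of the brightest of 10 equal classes by mean signal, 1.21%. All 20 genes lay within 1 log2 unit of the highest signal of any array, and whether the probes of such genes were near saturation was not tested.

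Over all 14860 genes the median SD between the 4 tumours was 0.123, with a 10th percentile of 0.051 and a 90th percentile of 0.292. An SD of at least 0.5 was found for 390 genes, which is 2.62% of all genes. A range of at least 1 between the lowest and the highest tumour, which is a 2-fold difference, was found for 521 genes, 3.51% of all. The SD reached 1 or more in 52 genes. The threshold of 0.5 separated no distinct group: Sytl2, just inside, had an SD of 0.5004 and Vmn1r27, just outside, one of 0.4998. Spread was largest at middle signal. In the fifth of 10 equal classes by mean signal, between 7.23 and 7.99, 6.06% of genes had an SD of at least 0.5, against 1.21% in the brightest class and 0.471% in the dimmest. Of the 390 genes, 250 still had an SD of at least 0.5 without tumour 3, the lowest of the counts when 1 tumour was left out, and 96 kept it whichever tumour was left out.

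**Figure D2:**
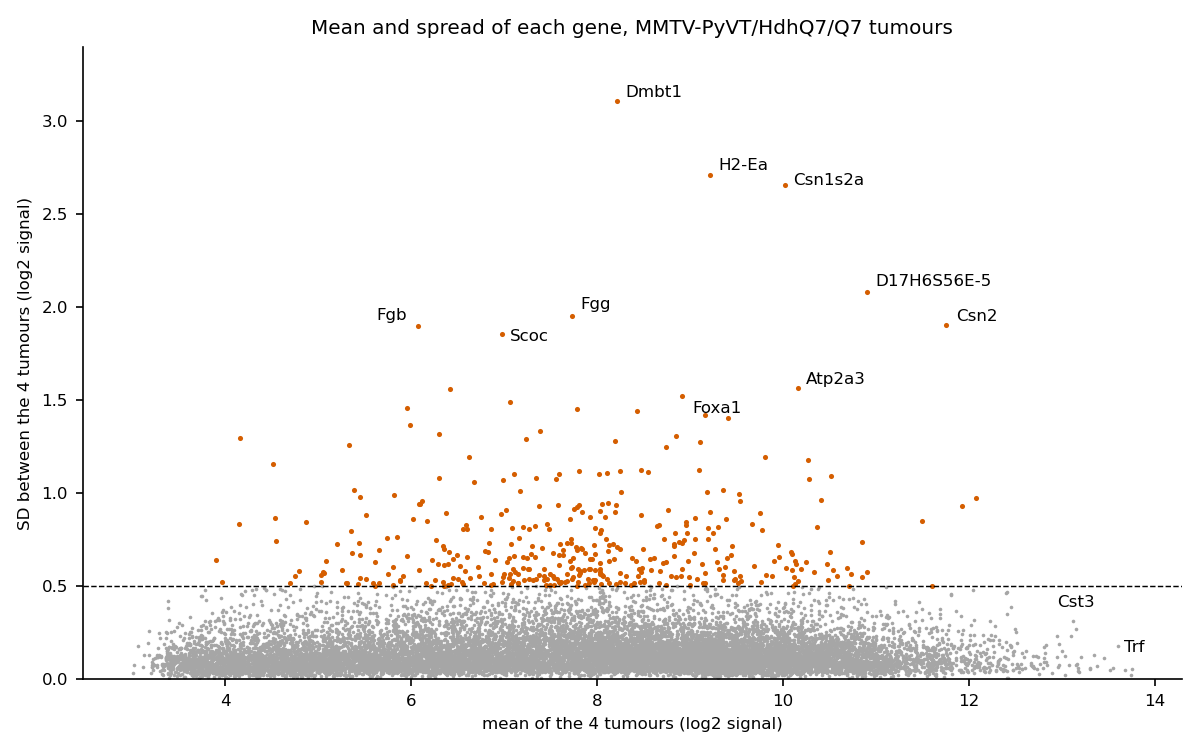
Mean log2 signal (x axis) and SD between the 4 MMTV-PyVT/HdhQ7/Q7 tumours (y axis, log2) of 14860 genes, 1 point per gene, with the 390 genes at or above an SD of 0.5 (dashed line) in colour. The named genes at the top vary most, Dmbt1 with an SD of 3.11, and the genes of the highest signal lie near the x axis.

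Dmbt1 varied most. It encodes a large scavenger-receptor glycoprotein of mucosal surfaces. Its log2 signal was 9.93, 5.79, 5.40 and 11.73 in tumours 1 to 4, high in tumours 1 and 4 and low in tumours 2 and 3. The highest tumour was 80.0-fold above the lowest, and the SD was 3.11. Fgfr2, a growth factor receptor whose gene lies near Dmbt1 in gene order, gave 9.76, 8.46, 7.09 and 9.66. It too was highest in tumours 1 and 4, with a smaller range.

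The 30 most variable genes included the caseins Csn1s2a and Csn2, H2-Ea and D17H6S56E-5 of the MHC region, and the fibrinogen chains Fgg and Fgb, beside many genes of no such group. Their SDs ran between 1.18 and 3.11. Tumour 3 was the lowest of the 4 in 15 of the 30 genes, against 22.7% of all genes. Tumour 1 was the highest in 13, against 24.5% of all genes. Tumour 4 was the highest in 9, which is near its share of all genes, 28.4%. In 10 of the 30 genes tumours 1 and 4 were the highest pair, as for Dmbt1, against 21.2% of all genes. Those were Dmbt1, Atp2a3, Foxa1, Klk1b8, Ctse, Pcp4, Otx1, Ntrk2, Fgfr2 and Tlcd4.

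**Figure D3:**
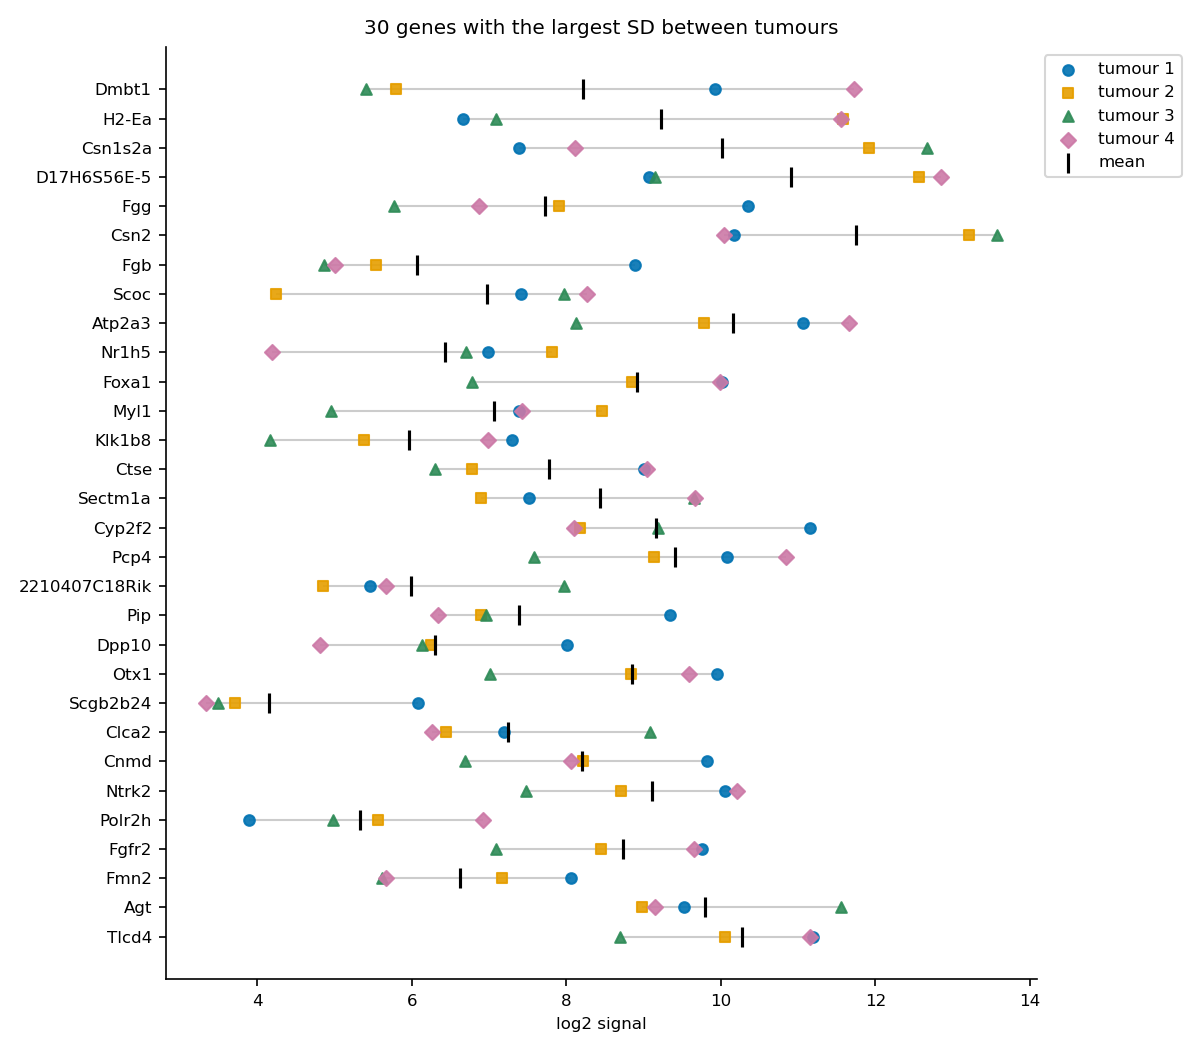
Log2 signal (x axis) of the 30 genes with the largest SD between the MMTV-PyVT/HdhQ7/Q7 tumours (y axis, largest SD at the top), with a point for each tumour and a tick for the mean of the 4. Csn1s2a and Csn2 are high in tumours 2 and 3, H2-Ea and D17H6S56E-5 in tumours 2 and 4, and Fgg and Fgb in tumour 1.

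Among the others of these 30 genes, some had most of their spread from a single tumour and some did not. Scoc, which encodes a short coiled-coil protein, gave 7.42, 4.24, 7.96 and 8.27, with only tumour 2 low. Its SD was 1.85, and 0.43 without tumour 2. Nr1h5, a nuclear receptor gene, gave 6.98, 7.82, 6.70 and 4.20, with tumour 4 low. Agt, the precursor of angiotensin, gave 9.52, 8.98, 11.56 and 9.15, and tumour 3 was more than 2 log2 units above the others. Clca2 (7.19, 6.44, 9.08 and 6.26) and 2210407C18Rik (5.45, 4.86, 7.98 and 5.66) were likewise highest in tumour 3. Cyp2f2, a cytochrome P450 known from the airways, gave 11.15, 8.18, 9.19 and 8.10. Pip, the prolactin-induced protein, gave 9.35, 6.90, 6.96 and 6.34. Dpp10, a dipeptidase-like protein bound to potassium channels, gave 8.01, 6.25, 6.13 and 4.81. Tumour 1 was the highest for these 3 genes, as it was for Cnmd, Fmn2 and the secretoglobin Scgb2b24. Without tumour 1 the SD was 0.19 for Scgb2b24, 0.34 for Pip and 0.61 for Cyp2f2. It was still 0.80 for Dpp10, 0.84 for Cnmd and 0.88 for Fmn2. Sectm1a was high in tumours 3 and 4, at 9.66 and 9.67, against 7.52 in tumour 1 and 6.90 in tumour 2. Polr2h, a subunit of RNA polymerases, was dim (3.89, 5.56, 4.98 and 6.92) and had 2 probe sets, whose average had an SD of 0.71 in place of 1.26.

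The caseins split into variable and constant members. Caseins are the main proteins of milk, and most of their genes lie side by side on chromosome 5. Csn1s2a gave 7.39, 11.91, 12.67 and 8.11 in tumours 1 to 4 (SD 2.66), and Csn2, beta-casein, gave 10.17, 13.21, 13.57 and 10.05 (SD 1.90). Both were high in tumours 2 and 3 and low in tumours 1 and 4, with no overlap between those pairs. Csn1s1 gave 11.90, 12.41, 12.75 and 10.63 (SD 0.93), in which tumours 2 and 3 were again the highest but tumour 1 lay close to them. Csn3, kappa-casein, gave 12.54, 12.57, 12.68 and 12.63 (SD 0.06), so the 4 tumours did not separate. Of 21 measured genes of the list of milk and alveolar genes, 5 (23.8%) had an SD of at least 0.5, against 2.62% of all genes. The other members past 0.5 were Lao1, an amino acid oxidase secreted in milk (9.13, 9.60, 10.87 and 8.53), and Olah, which releases medium-chain fatty acids for milk fat (5.52, 5.67, 7.31 and 5.58). Both were highest in tumour 3. The median SD of the 21 genes was 0.171, and 13 of them were highest in tumour 3, against 25.0% of all genes. Among the alveolar genes under 0.5, Elf5, the transcription factor of alveolar cells, was at 12.32 ± 0.10 and Mfge8, the coat protein of milk fat globules, at 13.00 ± 0.15. Ltf, lactoferrin, was at 12.04 ± 0.48, Cidea, a lipid droplet protein, at 5.91 ± 0.32, and Csn1s2b, a further casein gene, was dim at 4.56 ± 0.03.

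Casein genes are textbook targets of prolactin, which acts through the transcription factor Stat5, so the 200 bases before the start of the variable caseins were read for the STAT motif TTCNNNGAA, which is its own reverse complement. The sequences are those of RefSeq on GRCm38.p6, each printed in the direction of transcription with the motif in capitals, for Csn2 (chr5:87699426-87699625, minus strand), Csn1s1 (chr5:87666008-87666207, plus strand) and Csn1s2a (chr5:87774250-87774449, plus strand).
Csn2: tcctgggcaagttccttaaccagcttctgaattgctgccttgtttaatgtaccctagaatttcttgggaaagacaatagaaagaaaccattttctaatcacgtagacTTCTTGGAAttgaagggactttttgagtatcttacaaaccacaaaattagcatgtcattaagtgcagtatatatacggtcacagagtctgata
Csn1s1: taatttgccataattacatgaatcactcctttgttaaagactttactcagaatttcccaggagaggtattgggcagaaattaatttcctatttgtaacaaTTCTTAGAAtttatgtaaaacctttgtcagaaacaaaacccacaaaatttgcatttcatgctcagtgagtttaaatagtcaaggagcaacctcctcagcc
Csn1s2a: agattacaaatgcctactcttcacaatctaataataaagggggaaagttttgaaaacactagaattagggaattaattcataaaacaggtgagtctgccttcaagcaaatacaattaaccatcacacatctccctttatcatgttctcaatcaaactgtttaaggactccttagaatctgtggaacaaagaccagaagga
The motif began 93 bases before the start of Csn2 and 100 bases before that of Csn1s1, and these letters were not in the window of Csn1s2a. Among all 27025 genes with such a window, 5.62% held the motif, and 4.88% of the measured genes with one did. Of the 14 milk and alveolar genes with a window 2 did (14.3%), which were Csn2 and Csn1s1. No constant casein is shown beside them, and a link between the motif and the spread was not tested. The interferon motif, described with the interferon-induced genes, was in none of these 3 windows.

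Hormone-sensing genes were lowest in tumour 3. Foxa1, the pioneer factor that opens chromatin for the oestrogen receptor, gave 10.02, 8.85, 6.78 and 9.99 in tumours 1 to 4. Pgr, the progesterone receptor, gave 7.62, 7.59, 5.80 and 8.35. Cited1, a transcriptional co-activator of hormone-sensing cells, gave 8.96, 8.06, 6.93 and 8.86. For each of these genes tumour 3 was the lowest by more than 1 log2 unit, and for Foxa1 and Cited1 tumour 2 lay between it and tumours 1 and 4. Esr1, the oestrogen receptor, gave 8.42, 8.58, 7.78 and 9.05, with tumour 3 again lowest and tumour 4 highest. Of 7 measured genes, 4 (57.1%) had an SD of at least 0.5, against 2.62% of all genes. Tumour 3 was the lowest for 6 of the 7, against 22.7% of all genes. Tbx3, a transcription factor of these cells, was at 7.72 ± 0.40 and lowest in tumour 3. Tnfsf11, the progesterone-induced RANK ligand, gave 7.72, 8.38, 7.72 and 7.61 and was the member lowest in tumour 4. The mean of the 7 genes was 8.28, 8.07, 7.03 and 8.45, an SD of 0.64, and 0.19 without tumour 3. In bulk tissue, fewer cells of a type and less RNA per cell cannot be told apart.

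Other genes with tumour 3 at the bottom included regulators and receptors of epithelial cells. Otx1, a homeobox gene, gave 9.95, 8.84, 7.01 and 9.59, and Ntrk2, the receptor TrkB, gave 10.05, 8.70, 7.48 and 10.21. Atp2a3, a calcium pump of the endoplasmic reticulum, gave 11.07, 9.79, 8.13 and 11.66. Pcp4, a small calmodulin-binding protein, gave 10.08, 9.14, 7.59 and 10.84. In all 4 genes tumours 1 and 4 were high, tumour 2 was between and tumour 3 was low, the order seen for Foxa1. Tlcd4 (11.20, 10.05, 8.69 and 11.15) had that order too. Ctse, the protease cathepsin E, and Klk1b8, a kallikrein, also had tumours 1 and 4 high, at 9.01 and 9.04 for Ctse and 7.30 and 6.99 for Klk1b8.

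Of 21 luminal genes, 2 (9.52%) had an SD of at least 0.5, against 2.62% of all genes. Muc1, the mucin of the luminal surface, gave 9.94, 9.26, 11.42 and 11.44, high in tumours 3 and 4, and Elf3, an epithelial transcription factor, gave 8.60, 7.63, 8.45 and 8.77, low in tumour 2. Krt19 was 11.04 and 11.12 in tumours 1 and 4, against 10.30 and 10.39 in tumours 2 and 3. The mean of the luminal list was 11.03, 10.74, 11.05 and 11.02, and its SD was 0.147, or 0.015 without tumour 2. Erbb2, the receptor HER2, was at 10.16 ± 0.18. Of 14 basal genes, 2 (14.3%) had an SD of at least 0.5, against the same 2.62% of all genes. Krt5 gave 8.31, 8.37, 9.58 and 8.19, with tumour 3 high, and Krt14 gave 8.23, 7.58, 8.16 and 8.83, with tumour 4 high. Their partner keratins thus did not share a pattern here. Acta2, smooth muscle actin, was at 10.18 ± 0.42 and highest in tumour 3, and Trp63, the transcription factor of basal cells, was at 8.34 ± 0.13.

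**Figure D4:**
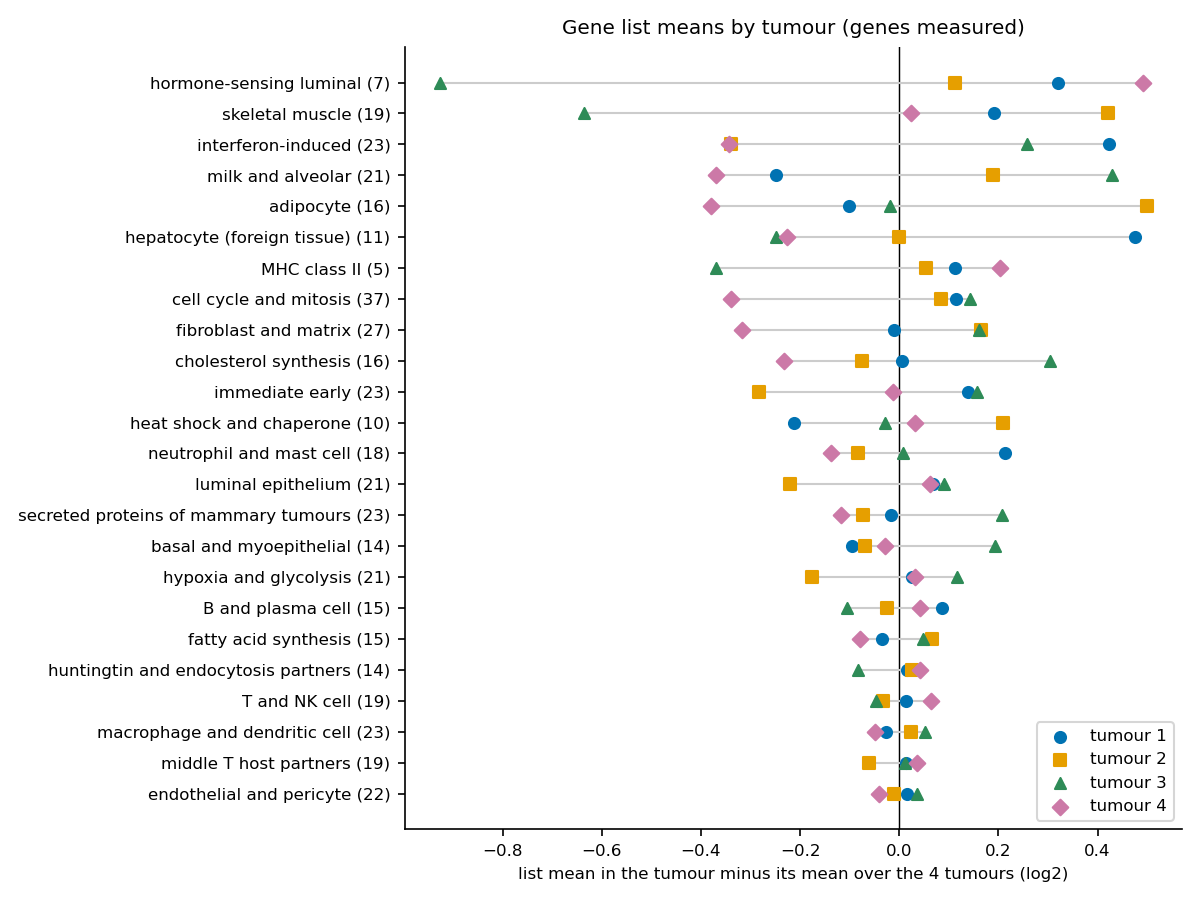
Mean of each gene list in each of the 4 MMTV-PyVT/HdhQ7/Q7 tumours as the difference from its mean over the 4 (x axis, log2), with the lists on the y axis in order of their SD and the number of genes measured in parentheses. Hormone-sensing and skeletal muscle genes are lowest in tumour 3, cell cycle genes in tumour 4, and adipocyte genes are highest in tumour 2.

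Most interferon-induced genes were higher in tumours 1 and 3 than in tumours 2 and 4. Type I interferon switches on a set of antiviral genes in most cell types. Rsad2, the antiviral protein viperin, gave 10.32, 8.90, 10.40 and 8.54 in tumours 1 to 4. Mx1 and Mx2, antiviral GTPases, gave 7.60, 6.33, 7.49 and 6.01 for Mx1 and 8.22, 7.05, 8.25 and 7.01 for Mx2. Oasl1 gave 9.60, 8.28, 9.57 and 8.31. Tumours 1 and 3 were high and tumours 2 and 4 low for all 4 of these genes, with no overlap and with gaps of more than 1 log2 unit between the pairs. Ifit1 (11.35, 10.38, 11.06 and 10.15), Oas2 (10.54, 9.76, 10.64 and 9.54) and Irf7, the factor that amplifies the response (11.46, 10.21, 11.11 and 10.61), showed the same pairs. Of 23 measured genes, 7 (30.4%) had an SD of at least 0.5, against 2.62% of all genes. The list mean was 9.63, 8.87, 9.46 and 8.86, and its SD was 0.40. Tumour 1 was the highest for 17 of the 23 genes and tumour 3 for 6, while the lowest was tumour 4 for 13 and tumour 2 for 10. Tumours 1 and 3 both lay above tumours 2 and 4 in 19 of the 23 genes (82.6%), against 18.8% of all genes, and with the arrays centred or quantile normalized in 19 as well. The other 4 did not show these pairs. Ifih1, the RNA sensor MDA5, gave 10.40, 9.86, 10.18 and 10.33, and Cxcl9, a chemokine for T cells, gave 6.76, 6.76, 6.63 and 6.31. Psmb8 (9.77, 9.35, 9.29 and 9.25) and Psmb9 (9.36, 8.65, 8.71 and 8.84), subunits of the immunoproteasome, were highest in tumour 1 alone, with tumour 3 among the low ones. Oasl2 (10.76 ± 0.48) and Ddx58, which encodes the RNA sensor RIG-I (10.87 ± 0.25), were members with an SD under 0.5.

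The promoters of 2 of these genes are shown because the motif of the interferon response, searched as GAAA followed after any 2 bases by a further GAAA, on both strands, stood in them. The 200 bases before the start, from RefSeq on GRCm38.p6 in the direction of transcription, are those of Rsad2 (chr12:26456453-26456652, minus strand) and Ifit1 (chr19:34640689-34640888, plus strand), with the motif in capitals.
Rsad2: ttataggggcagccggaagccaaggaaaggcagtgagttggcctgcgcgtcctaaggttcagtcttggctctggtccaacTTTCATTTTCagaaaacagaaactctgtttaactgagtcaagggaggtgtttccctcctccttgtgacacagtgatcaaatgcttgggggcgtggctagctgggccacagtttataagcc
Ifit1: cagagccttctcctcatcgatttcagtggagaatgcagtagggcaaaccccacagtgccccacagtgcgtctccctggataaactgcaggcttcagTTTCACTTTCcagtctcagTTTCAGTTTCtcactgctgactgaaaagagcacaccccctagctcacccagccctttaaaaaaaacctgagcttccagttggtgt
The match began 120 bases before the start of Rsad2, and the 2 matches of Ifit1 began 104 and 85 bases before its start, all read from the other strand. The motif stood in 2.33% of all 27025 windows, in 2.1% of those of measured genes and in 6 of the 18 windows of interferon-induced genes (33.3%). The STAT motif was in neither of these windows.

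Of the MHC region of chromosome 17, H2-Ea and D17H6S56E-5 were among the 4 genes with the largest SD. H2-Ea, which encodes the alpha chain of the class II molecule I-E, gave 6.66, 11.58, 7.09 and 11.55 in tumours 1 to 4, an SD of 2.71. D17H6S56E-5, a gene of the same region, gave 9.07, 12.57, 9.15 and 12.84, an SD of 2.08. Both were high in tumours 2 and 4 and low in tumours 1 and 3, and within each pair the signals of H2-Ea differed by less than 0.5 log2 units. H2-Ea was not placed in the list of class II genes. H2-Aa was at 11.37 ± 0.27 and Cd74, the invariant chain, at 11.56 ± 0.25. H2-Ab1 alone of the 5 measured genes had an SD of at least 0.5 (9.95, 10.37, 9.23 and 10.58). It was the highest in tumours 2 and 4, as H2-Ea was, with a smaller range. The list mean was 9.48, 9.42, 8.99 and 9.57, with tumour 3 the lowest.

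Fibrinogen chains were high in tumour 1. Fibrinogen is the clotting protein that the liver makes, and its 3 chains are encoded by neighbouring genes. Fgg gave 10.35, 7.91, 5.78 and 6.87, and Fgb gave 8.89, 5.53, 4.86 and 5.01. Tumour 1 was the highest for both, and for Fgb the other 3 lay within 1 log2 unit of each other. The rest of the hepatocyte list was dim and even: 0 of 11 genes had a mean above the median of all genes. Only Fgg and Fgb, 2 of the 11 (18.2%), had an SD of at least 0.5, against 2.62% of all genes. Fga, the gene of the third chain, was at 4.59 ± 0.04. Alb, albumin, the defining product of hepatocytes, was at 5.01 ± 0.09 and Ttr, transthyretin, at 6.22 ± 0.14.

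Secreted proteins known from mammary tumours varied as single genes. Of 23 measured, 7 (30.4%) had an SD of at least 0.5, against 2.62% of all genes, and the list median was 0.265. Tnc, the matrix glycoprotein tenascin C, gave 9.12, 9.97, 10.30 and 8.02, and Saa3, an acute phase protein, gave 7.05, 7.56, 8.33 and 6.37. Both were highest in tumour 3 and lowest in tumour 4. Pigr, the receptor that carries IgA across epithelium, gave 10.56, 9.76, 10.83 and 9.61, high in tumours 1 and 3. Sfrp1, a secreted Wnt antagonist, gave 9.44, 9.26, 10.43 and 10.16, high in tumours 3 and 4. Mmp13, a collagenase, was highest in tumour 4 (5.91, 6.31, 6.02 and 7.41), and Cxcl15 in tumour 1 (6.19, 4.81, 4.53 and 5.27). The mean of the list was lowest in tumour 4, at 8.67, and its SD was 0.144.

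Skeletal muscle and fat genes varied between tumours as lists. Of 19 measured skeletal muscle genes, 8 (42.1%) had an SD of at least 0.5, and 2 had a mean above the median of all genes. The share with such an SD was 2.62% over all genes and 6.06% in the fifth signal class, where the list's median signal lay. Myl1, a myosin light chain of fast fibres, gave 7.39, 8.47, 4.96 and 7.43. Atp2a1, the calcium pump of muscle, gave 8.36, 8.41, 6.43 and 8.03, and Acta1, skeletal actin, gave 9.07, 9.65, 7.92 and 8.68. Tumour 3 was the lowest for 17 of the 19 genes, against 22.7% of all genes, and tumour 2 the highest for 15, against 22.1%. The list mean was 7.24, 7.47, 6.41 and 7.07, an SD of 0.45, and 0.20 without tumour 3. Tnnc2, Eno3 and Ckm followed, with SDs of 0.65, 0.65 and 0.53. Tumour 3 was thus lowest in both the muscle list and the hormone-sensing list, and the part of muscle in the other results was not tested.

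Of 16 adipocyte genes, 7 (43.8%) had an SD of at least 0.5. The share was 2.62% over all genes and 3.84% in the fourth signal class, where the list's median signal lay. Car3, a carbonic anhydrase abundant in fat, gave 9.91, 11.80, 10.13 and 9.29. Cd36, the fatty acid transporter, gave 5.54, 6.83, 6.36 and 4.57, and Lpl, which frees fatty acids from lipoproteins, gave 7.25, 8.26, 8.03 and 6.83. All 3 were highest in tumour 2 and lowest in tumour 4. Cidec, a lipid droplet protein (7.41 ± 0.71), Retn, resistin (7.20 ± 0.60), and Ucp1, the uncoupling protein of brown fat (5.74 ± 0.76), were also highest in tumour 2. In all, 13 of the 16 were highest in tumour 2, against 22.1% of all genes, and 12 lowest in tumour 4, against 30.4%. The exception of high signal was Pnpla2, a triglyceride lipase of many tissues, with 10.89, 9.77, 10.17 and 10.30. The list mean was 7.12, 7.72, 7.21 and 6.84.

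Matrix genes were lowest in tumour 4 for 20 of 27 genes, against 30.4% of all genes. Col6a3, a chain of collagen VI, gave 8.78, 8.70, 7.76 and 7.30. Fn1, fibronectin, gave 10.37, 9.94, 10.83 and 9.25, Dpt, dermatopontin, gave 8.31, 7.72, 8.56 and 7.11, and Lum, lumican, gave 8.20, 9.17, 8.63 and 7.67. These 4 were the members with an SD of at least 0.5 (14.8%, against 2.62% of all genes), and for each tumour 4 was the lowest. Among the brightest members, Sparc was at 11.65 ± 0.26, Postn at 11.46 ± 0.42 and Bgn at 11.18 ± 0.25. The list mean was 8.84, 9.02, 9.02 and 8.54.

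The lists of vessel, macrophage and T cell genes had SDs of their mean of 0.033, 0.046 and 0.050. Over all genes, 2.62% had an SD of at least 0.5, and counts of 0 or 1 in lists of 15 to 23 genes are near that share. In T and NK cell genes, 0 of 19 had an SD of at least 0.5 and 0 lay above the median signal of all genes. Cd3e, part of the T cell receptor complex, was at 7.05 ± 0.08. In macrophage and dendritic cell genes, 0 of 23 reached 0.5, with C1qb, a complement component, at 10.88 ± 0.20 and Cd14 the most variable (10.66, 9.87, 10.57 and 10.74). Of 22 endothelial and pericyte genes only Pdpn (8.05 ± 0.51), which fibroblasts and basal cells also make, reached it, and Cdh5, the cadherin of endothelium, was at 8.64 ± 0.06. Of 15 B and plasma cell genes only Ly6d did, with 8.80, 7.49, 7.59 and 8.80. Cd79a, a part of the B cell receptor, was at 6.73 ± 0.28. In neutrophil and mast cell genes, 0 of 18 lay above the median signal, and Ngp, a granule protein, was 5.83 in tumour 1 against 4.03, 4.21 and 4.08 in the others. S100a8 was at 5.80 ± 0.50.

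Cell cycle genes showed a small difference that all members shared. All 37 measured genes were lowest in tumour 4, and 0 of them had an SD of at least 0.5, against 2.62% of all genes. Mki67, the proliferation marker Ki67, gave 8.18, 8.37, 8.15 and 7.54 in tumours 1 to 4. Mad2l1, of the spindle checkpoint, gave 10.11, 10.22, 10.29 and 9.44, and Cdk1, the mitotic kinase, gave 10.29, 10.35, 10.49 and 9.88. Tumours 1 to 3 overlapped and tumour 4 lay below them. The list mean was 9.01, 8.98, 9.04 and 8.56, an SD of 0.23, and 0.029 without tumour 4. Over all 14860 genes tumour 4 was the lowest in 30.4%.

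**Figure D5:**
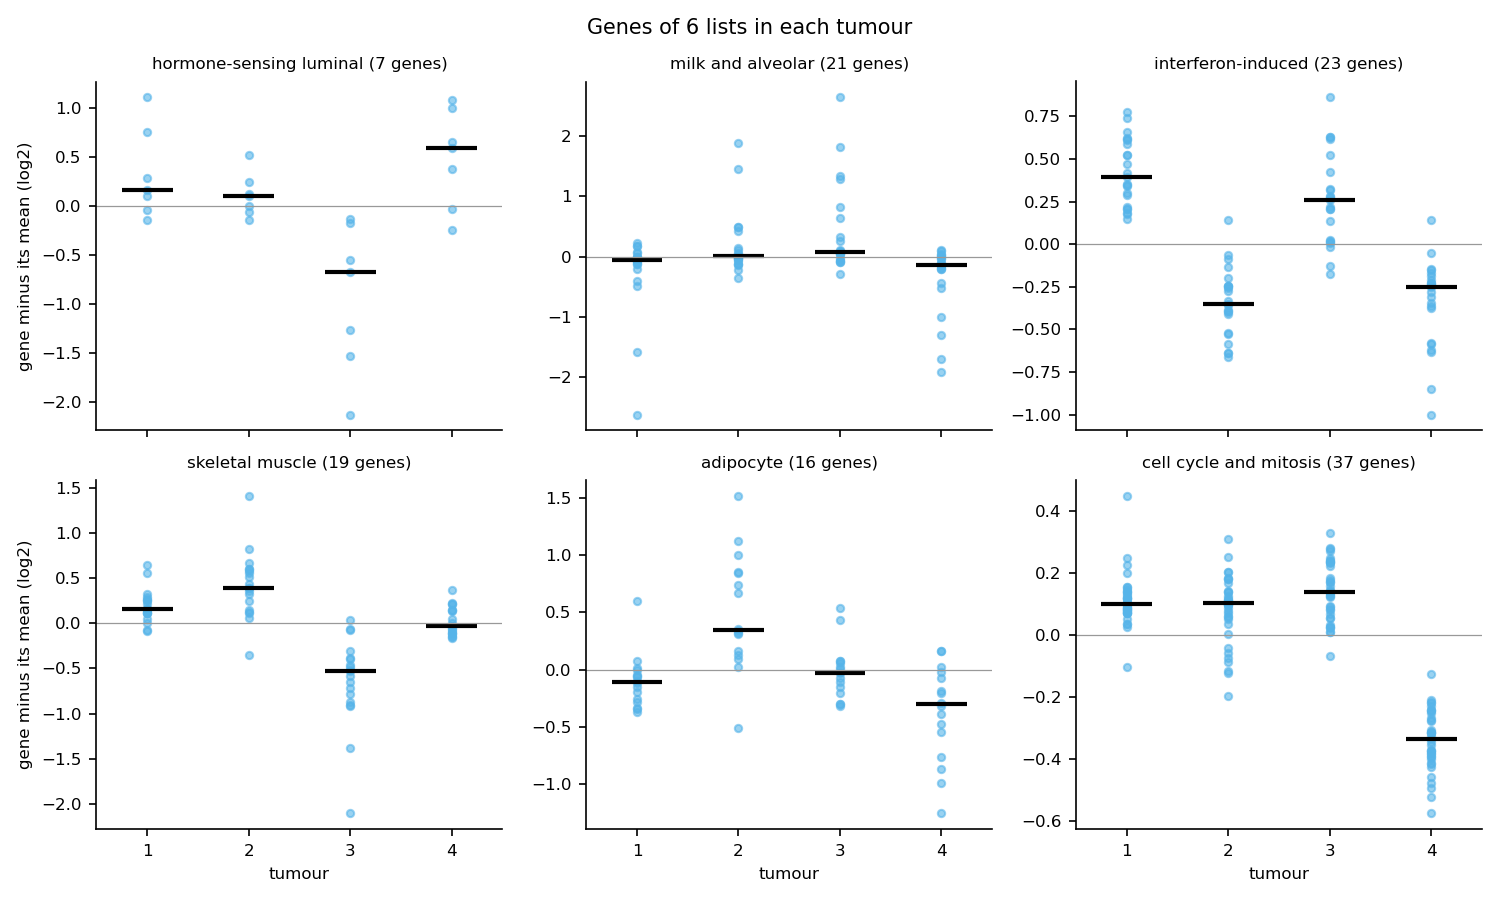
Difference of each gene from its own mean over the 4 MMTV-PyVT/HdhQ7/Q7 tumours (y axis, log2, scaled per panel) in tumours 1 to 4 (x axis), for the genes of 6 lists, with a point per gene and a bar at the median of the list. The 37 cell cycle genes lie lower in tumour 4, and 19 of the 23 interferon-induced genes lie higher in both tumours 1 and 3 than in tumours 2 and 4.

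Lists of metabolism and stress had at most 2 members each past the threshold, which 2.62% of all genes reached. Counts of 0 are near that share. The share was 4.76% for hypoxia and glycolysis, 8.70% for immediate early and 10% for heat shock genes, from 1 or 2 genes each. Over all genes tumour 2 was the lowest in 27.5% and the highest in 22.1%, and tumour 3 was the highest in 25.0%. Of 16 cholesterol synthesis genes 0 had an SD of at least 0.5 and 14 were highest in tumour 3, with Msmo1 at 8.66, 8.59, 9.32 and 8.24 and Sqle, squalene epoxidase, at 9.28, 9.39, 9.60 and 8.71. Of 15 fatty acid synthesis genes 0 reached 0.5, and all 15 lay above the median signal, with Scd1, stearoyl desaturase, at 12.97 ± 0.19. Of 21 genes of hypoxia and glycolysis, Adm, adrenomedullin, reached it (6.95, 5.43, 6.56 and 7.28), and 11 were lowest in tumour 2. Of 23 immediate early genes, which respond within minutes to stimulation or handling, Dusp1 (10.58, 9.48, 10.70 and 10.59) and Nr4a2 (9.28, 8.54, 9.89 and 8.93) reached it, and 17 were lowest in tumour 2. Of 10 heat shock genes, Hsph1 reached it (8.55, 10.30, 9.48 and 9.47), and 7 were highest in tumour 2. Tumour 2 was thus the lowest in most immediate early genes and the highest in most heat shock genes.

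Of 19 measured genes of host proteins that middle T uses, 0 had an SD of at least 0.5, which is near the 2.62% of all genes. All 19 lay above the median signal, and their median SD was 0.082, against 0.123 over all genes. It was 0.118 in class 9 of the 10 signal classes, where the list's median signal lay. Ppp2r1a, the scaffold subunit of phosphatase 2A, was at 12.67 ± 0.08 and Ppp2ca, its catalytic subunit, at 12.33 ± 0.06. Ywhaz and Ywhae, 14-3-3 proteins, were both at 12.21, with SDs of 0.09 and 0.07. Gab1, an adaptor of receptor signalling, was at 10.44 ± 0.17, and Fyn, a Src family kinase, at 8.84 ± 0.21 and highest in tumour 4. Of 14 genes of huntingtin and endocytosis, 0 had an SD of at least 0.5, again near the share of all genes, with a median SD of 0.093. Cltc, the clathrin heavy chain, was at 11.69 ± 0.09, Dnm2, the dynamin that cuts vesicles free, at 10.29 ± 0.10, and Hap1, a huntingtin-associated protein, at 8.63 ± 0.22.

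The most constant genes above the median signal had SDs between 0.0040 and 0.013. The 10 genes were 9930021J03Rik, Ppp6r3, Rab1a, Ccdc50, Zfp280c, Rab1b, Pan3, Cc2d1a, Bclaf1 and Tmem164. Rab1a, a GTPase of transport between endoplasmic reticulum and Golgi, gave 12.41, 12.42, 12.43 and 12.41, and its relative Rab1b gave 11.72, 11.73, 11.72 and 11.74. Ppp6r3, a regulatory subunit of phosphatase 6, was at 10.71 and Pan3, of the mRNA deadenylation complex, at 10.18. Each of the 10 genes differed by at most 1.02-fold between its lowest and its highest tumour. These SDs are smaller than the shifts between arrays, and with the arrays centred or quantile normalized they lay between 0.015 and 0.044.

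Pairs of tumours correlated across genes with Pearson's r between 0.987 and 0.992. Genes are not independent replicates, and each value of r also reflects the differences in signal between probes. Tumours 1 and 4 were the closest by the number of genes at least 2-fold apart, with 112 genes, and tumours 3 and 4 the farthest, with 274. The SD of the difference between 2 tumours over all genes lay between 0.276 and 0.351. Of the variance between the 4 tumours, the first principal component held 47.5% and ran between tumour 3, with a score of -19.9, and tumour 4, with 21.6. The second held 27.2% and set tumour 2 (-19.1) against tumours 1 and 3 (9.12 and 9.92). Of the 200 genes with the largest SD, tumour 3 was the lowest for 94 (47%), against 22.7% of all genes, and tumour 4 the highest for 86 (43%), against 28.4%. Tumours 1 and 4 were the highest pair for 80 (40%), against 21.2%. A single tumour stood apart from the other 3 by Dixon's ratio, the gap of an end value to its neighbour as a share of the range, for 20 of these 200 genes (10%), against 5.42% of all genes. Without the dimmest 40% of genes it was 10 of 200 (5%), against 5.24% of the genes left, and there was no excess.

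Variable genes also lay near each other in the genome. Of the 200 genes, 33.5% had another of them within 10 genes in RefSeq gene order, against 22.1% of all genes that had one of the 200 that near, and together they formed 28 runs. For the 100 most variable genes the shares were closer, 15.0% against 12.3%, and for 400 they were 44.8% against 40.3%. The longest run, on chromosome 5, held 6 genes: Csn1s1, Csn2, Csn1s2a, Prol1, Slc4a4 and Cxcl15. Its genes did not share a pattern, since the caseins were high in tumours 2 and 3, whereas Slc4a4, a bicarbonate transporter, gave 8.02, 8.23, 6.75 and 9.46. A run of 4 genes on chromosome 2 held Celf2, Itih2, Itih5 and Itga8, all of them higher in tumours 1 and 4 than in tumour 3. The genes of the other run of 4, on chromosome 10, were highest in tumour 1, 2 or 3 and so did not share a highest tumour. Itih5, of the inter-alpha-trypsin inhibitor family, gave 8.69, 7.92, 7.10 and 8.22. Hoxb4 (8.25, 8.45, 7.24 and 8.92) and Hoxb2 (7.46 in tumour 3 and 9.58 in tumour 4), homeobox genes of 1 cluster on chromosome 11, were both lowest in tumour 3 and highest in tumour 4. Ccl7 (8.03, 8.19, 8.94 and 7.00) and Ccl8 (6.96, 6.34, 8.31 and 7.19), chemokines for monocytes, were both highest in tumour 3. Mmp12, the macrophage elastase next to Mmp13, was highest in tumour 3 (6.24, 6.28, 7.70 and 6.99), where Mmp13 was not. Nearby genes of a family can share probes of like sequence, and the part of this in the runs was not tested.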

How the data were processed

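The authors deposited a table of log2 signals, 1 column per array of 1 tumour, for 23332 probe sets of the Affymetrix Mouse Exon 1.0 ST array. Per the labels the probe sets are those of the core meta-probeset file of the mm9 build, so the probes of a gene were combined. The normalization of this table itself was not given in the sources used here. The methods describe, for the gene analysis, signals that were quantile normalized and corrected for background by antigenomic probes, with genes annotated by FAST DB and undetected probes removed. The values were used as deposited, with no further scaling and no filter. Only the number of arrays limits the precision that can be stated, since the table carries no probe-level error.

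Gene symbols came from the platform annotation. Only probe sets with 1 symbol were used, and 14833 of the 14860 genes were placed in RefSeq gene order, by symbol. The mean and SD of the 4 tumours, the list means, the pairwise differences and the principal components were computed with Python 3.11.15, numpy 2.4.6, pandas 2.3.3 and scipy 1.17.1, and figures were drawn with matplotlib 3.10.9. A single group was described, so no difference between groups was tested. The order of genes by SD, Dixon's ratio and the quantile normalization were tested on simulated data, and the other steps were not. Promoters of the RefSeq table (GRCm38.p6) were matched by symbol.

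The genotype described, the 32 gene lists, of which 24 are described, and the thresholds were chosen with earlier results of these data known. The genes named were the 20 with the highest mean, the 30 with the largest SD, the 10 most constant above the median signal, from each list described up to 6 members with the largest SD and up to 4 with the highest mean, defining markers, Htt, Erbb2, Cdh1, Krt18 and Actb, the genes at the threshold, and neighbours among the 200 most variable genes. Ifih1, Cxcl9, Psmb8, Psmb9, Csn1s2b and Cidea were named after their values were seen. Alternatives were another scaling of the arrays, a filter on dim genes, the mean of all probe sets of a gene, other thresholds and windows, and leaving out each tumour.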

Additional observations from a re-analysis of the deposited data

Results flagged for a closer look

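Of 171 genes and 24 list means that the text gives, 14 had 1 tumour apart from the other 3 by more than the 95% critical value of Dixon's ratio for 4 values. Chance alone gives such a gap in about 1 of 20 groups, and many of the genes were named for their spread. Tumour 1 was high for Fgb, at a log2 signal of 8.89, for the secretoglobin Scgb2b24, at 6.08, and for the granule protein Ngp, at 5.83. Tumour 2 was low for Dusp1, at 9.48, and high for Tnfsf11, at 8.38, and for Ucp1, at 6.87. Tumour 3 was high for Krt5, at 9.58, for Olah, at 7.31, for Sparc, at 12.04, and for Atp5b, a subunit of ATP synthase, at 13.24. Tumour 4 was high for Cst3, at 13.58, and for Fyn, at 9.14. Of the list means, that of luminal epithelium was low in tumour 2, at 10.74, and that of cell cycle and mitosis was low in tumour 4, at 8.56. For Atp5b the whole range was 0.082, so that the gap was small in signal.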

How the results depend on the processing

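No paired analysis was possible because the values come from no test and a single genotype is described. The number of tumours limits every value. Leaving out each tumour in turn shared between 59 (without tumour 3) and 87 of the 100 genes with the largest SD and between 94 and 99 of the 100 with the highest mean. The SD of a list mean then lay between 0.19 and 0.77 for hormone-sensing genes, 0.20 and 0.56 for skeletal muscle, 0.19 and 0.45 for adipocyte, 0.14 and 0.41 for hepatocyte, 0.075 and 0.31 for MHC class II, 0.10 and 0.28 for matrix, 0.029 and 0.27 for cell cycle, 0.12 and 0.28 for cholesterol synthesis, 0.093 and 0.25 for immediate early, 0.073 and 0.19 for neutrophil and mast cell, 0.015 and 0.17 for luminal, 0.050 and 0.18 for secreted proteins, 0.033 and 0.16 for basal, 0.051 and 0.15 for hypoxia, 0.031 and 0.060 for T and NK cell, 0.014 and 0.067 for huntingtin partners and 0.013 and 0.050 for middle T partners. The milk and alveolar list, the interferon-induced list and the other lists described stayed within 1.5 times their SD. Of the caseins, Csn1s1 had an SD of 0.43 without tumour 4, against 0.93. An SD of at least 0.5 was found for 975 of all 23332 probe sets (4.18%), 961 genes at a threshold of 0.35 and 127 at 0.75. After the median SD of genes of like signal was taken off, 204 genes reached 0.5, and 98 of the 100 most variable genes were shared. With the arrays centred on their medians the SD of the list mean was 0.032 for T and NK cell genes and 0.053 for endothelial genes, and with quantile normalization it was 0.014 for middle T partners. Without the dimmest 40% of genes it was 0.27 for B and plasma cell genes and 0.22 for secreted proteins, and 1 tumour stood apart in 10 of the 200 genes. Neighbours made up 19.5% of the 200 genes in a window of 5 genes, against 12.0% of all genes, and 15.0% of the 100 most variable genes in one of 10, against 12.3%. Of 651 SDs of named genes under another scaling, filter or choice of probe set, 624 lay within 1.5 times the value given. The part of any cause in these differences was not tested.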
